A study of Mus musculus with 4 samples.

Results

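The 7 genes *Socs2*, *Stc1*, *Txnip*, *Nr6a1*, *Ldb2*, *Mmp16* and *Pcmtd1* were followed through every cell population of the E16.5 mouse penis, out of 32287 features counted in single cells. They were chosen by their own difference between ablated and control penises across most populations in an earlier pass through these libraries. Their fold changes, error terms and calls for that contrast are therefore given as a description, without a test. Male embryos of both groups carried a conditional diphtheria toxin allele at the Rosa locus (DTA f/+). The 2 control samples (DTA-) lacked Cre (Nr5a1cre-), while the 2 ablated samples (DTA+) carried *Nr5a1-Cre* (Nr5a1cre+), a transgene that turns the toxin on in cells that have expressed *Nr5a1*. Per the study's methods the ablated embryos also received a Cre-dependent tdTomato reporter from the parent that gave the Cre. *Nr5a1-Cre* is not restricted to the penis: it also acts in the testis and adrenal gland, both affected by the ablation in the study. Effects of the ablation in those organs and within the penis cannot be told apart in this design.

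The products of the 7 genes do different work. *Socs2* encodes a suppressor of cytokine signaling that dampens growth hormone receptor signaling and is itself switched on by STAT5. *Stc1* encodes stanniocalcin 1, a secreted glycoprotein that inhibits the protease PAPP-A, which frees insulin-like growth factors from their binding proteins. *Txnip* encodes a thioredoxin-interacting arrestin that limits glucose uptake and follows the glucose sensors MLX and MondoA. *Nr6a1* encodes the orphan nuclear receptor germ cell nuclear factor, a repressor of pluripotency genes that is active in trunk patterning of the early embryo. *Ldb2* encodes a LIM domain-binding adaptor that bridges LIM-homeodomain and LMO proteins. *Mmp16* encodes a membrane-anchored matrix metalloproteinase, and *Pcmtd1* a protein with an isoaspartate methyltransferase fold and a link to cullin ubiquitin ligases. On the mm10 mouse genome (GRCm38) they lie on 7 chromosomes, so that no pair shares a locus: *Pcmtd1* at chr1:7088920-7173628 on the plus strand, *Nr6a1* at chr2:38723370-38927688 on the minus strand, *Txnip* at chr3:96557957-96561883 on the plus strand and *Mmp16* at chr4:17852893-18119145 on the plus strand. *Ldb2* lies at chr5:44472132-44799680 on the minus strand, *Socs2* at chr10:95385362-95417180 on the minus strand and *Stc1* at chr14:69029238-69041804 on the plus strand.

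A RefSeq promoter sequence (GRCm38.p6) was held for 2 of the 7 genes, *Txnip* and *Nr6a1*. The *Txnip* promoter is shown because it carries a paired element known as the carbohydrate response element, through which the gene follows sugar metabolism. The 250 bases before its start, chr3:96557707-96557956 on the plus strand, read 5′ to 3′ with that element in capitals:

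Txnip: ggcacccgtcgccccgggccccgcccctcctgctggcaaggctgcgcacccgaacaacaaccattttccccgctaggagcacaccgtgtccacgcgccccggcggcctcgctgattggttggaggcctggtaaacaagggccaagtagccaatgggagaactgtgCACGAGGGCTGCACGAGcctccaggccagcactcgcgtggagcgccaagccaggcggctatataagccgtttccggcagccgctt

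The element, a pair of E box-like half-sites set apart by a short spacer, was searched on both strands. It starts 85 bases before the transcript start and was present in 0.0457% of 32851 RefSeq promoter windows of the same length. Of 5 other motifs searched on both strands, the *Txnip* window held CCAAT at 137 and 102 bases before the start (33.8% of all windows had it), the FOXO site TGTTTAC at 121 bases (3.17%) and the glucocorticoid response element at 172 bases (0.387%). The palindromic STAT site (7.02% of all windows) and the nuclear receptor half-site AGGTCA (14.0%) were not matched there, and no match overlapped another. At *Nr6a1*, neither of the 2 listed starts matched the first 5 of these motifs, and AGGTCA occurred 91 and 45 bases before the inner start. These matches describe letters only.

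The 4 libraries held 47040 cells with 50779551 to 73577028 unique molecular identifiers (UMIs, each standing for a captured mRNA molecule) per library. Of these cells, 31132 lay between 1000 and 7500 UMIs and under the mitochondrial and hemoglobin limits of the study, with a median of 3551 to 4700 UMIs per cell in each library. In the first control library only 52.2% of cells were kept, against 67.8% to 77.7% in the other three, and 238 cell barcodes occurred in 2 libraries. Clusters were named from marker genes, and each name below stands for cells that are like the named population. Of 19 populations, 17 had at least 20 cells in every sample and were compared, 10 of them mesenchymal and 7 not. Those left out were a cluster led by *Akap12* and *Iyd*, found mainly in the ablated samples (28 and 16 against 744 and 589 cells), and smooth muscle, found mainly in the controls (136 and 195 against 32 and 13 cells). Their part in the mesenchymal comparisons was not tested. The mesenchymal ones were the distal glans, corpus cavernosum, periurethra, subdermal prepuce, proliferative cells, a *Sostdc1*/*Coch* mesenchyme that carried 3 of the general prepuce markers without *Akap12*, and 4 clusters given by their leading genes (*Irx1*/*Col7a1*, *Thbd*/*Ptgis*, *Rprm*/*Wnt10a* and *Kera*/*Nefl*). The others were endothelium, pericytes, macrophages, mast cells, neural cells, epithelium and red blood cells. The subdermal prepuce came mainly from one cluster in the controls (261 and 830 cells, against 40 and 16 in the ablated samples). In the ablated samples it came mainly from another (59 and 337 cells, against 65 and 2 in the controls). Every subdermal prepuce value below, also those of other genes, therefore compares mainly different clusters between genotypes.

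Over the sum of all kept cells, *Socs2* was the gene of the 7 that was lower in ablated penises, and the other 6 were higher (levels are CPM, the UMIs of a gene as a share of all UMIs of the same sum scaled in the usual way, and n = 2 per group throughout). *Nr6a1* had the largest ratio. It stood at 1.1 and 1.5 CPM in the controls and at 17.4 and 18.1 CPM in the ablated samples, 13.5-fold higher on average. *Stc1* went from 17.2 ± 2.98 to 52.3 ± 1.08 CPM (mean ± SD) and *Ldb2* from 26.1 ± 4.72 to 61.7 ± 1.05 CPM. *Mmp16* (33.8 ± 6.95 to 77.2 ± 4.0 CPM) and *Txnip* (94.8 ± 16.1 to 203 ± 15.5 CPM) came next by ratio, and *Pcmtd1* went from 57.7 ± 3.91 to 88.4 ± 3.96 CPM. *Socs2* went from 41.2 ± 15 to 16.5 ± 4.92 CPM, with the widest relative spread of the 7 between its controls (30.6 and 51.8 CPM). Of the 7, 3 (*Stc1*, *Nr6a1* and *Ldb2*) passed an adjusted p under 0.05 in edgeR's quasi-likelihood fit, where 0.488% of 15977 genes did; since the genes were selected on this contrast, nothing is read from that count. This sum also mixes populations whose shares of cells differ between samples. The values within populations below do so less, but some named populations, such as the distal glans and subdermal prepuce, pool clusters whose shares also differ.

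Population by population, the number of genes called at an adjusted p under 0.05 differed widely. The *Thbd*/*Ptgis* cluster had the highest share of tested genes called (11.8%), followed by the corpus cavernosum (7.06%), distal glans (5.05%), subdermal prepuce (4.3%), periurethra (3.8%) and *Sostdc1*/*Coch* mesenchyme (2.51%). It was 0.976% in the *Kera*/*Nefl* cluster, 0.6% in the *Irx1*/*Col7a1* cluster, 0.382% in proliferative cells and 0.0875% in the *Rprm*/*Wnt10a* cluster. Outside the mesenchyme it was 0.137% in red blood cells, 0.105% in neural cells, 0.0861% in pericytes, 0.0177% in endothelium and 0% in epithelium, macrophages and mast cells. In those last 3, of 4907, 4364 and 2552 genes tested, 227, 188 and 144 had an unadjusted p under 0.05 in edgeR. Each is close to the share that such a cut-off passes when nothing differs. DESeq2 called 0, 0 and 4 genes there, and the likelihood ratio test of edgeR 5, 9 and 20. The 7 populations outside the mesenchyme had 27 to 203 cells per sample, so that a difference missed there may lie below what this depth can show. All 7 genes were called in the distal glans, corpus cavernosum, subdermal prepuce and *Thbd*/*Ptgis* cluster, while 1 of the 7, *Stc1* in red blood cells, was called in any population outside the mesenchyme. Of 13888 genes fitted in at least 1 population, 16 were called in 7 or more. *Socs2* and *Nr6a1* were called in 9 populations, *Ldb2* in 8, *Stc1*, *Txnip* and *Mmp16* in 7 and *Pcmtd1* in 4, a number that 168 genes reached. Since the 7 genes were chosen for differing across most populations of these libraries, nothing is read from these counts.

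**Figure D1:**
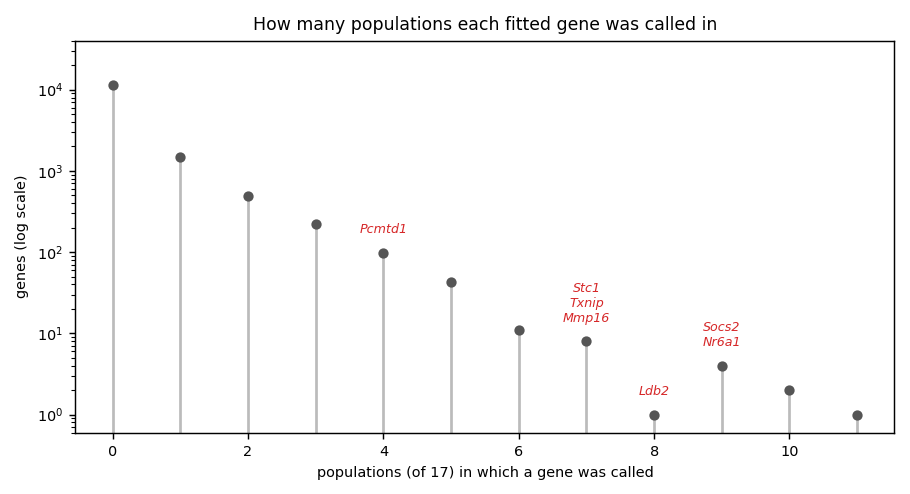
Number of the 17 populations in which each fitted gene was called (horizontal axis) against the number of such genes (vertical axis, log scale), with the 7 genes written above the point they belong to. *Pcmtd1* lies at 4 populations and the other 6 at 7 to 9. The 7 genes were chosen for differing across most populations, so their places are a description only.

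*Socs2*, the feedback inhibitor of growth hormone signaling, was lower in the ablated mesenchyme and higher in the ablated mast cells. In the distal glans it stood at 36.7 and 59.0 CPM in the controls and at 10.8 and 13.8 CPM in the ablated samples. In the subdermal prepuce it stood at 25 and 36.4 CPM in the controls and at 0 and 2.3 CPM in the ablated samples, the largest fitted difference of the 10 mesenchymal populations (log2 fold change -4.12 ± 0.57, SE). That difference rests on 0 and 4 UMIs in the ablated samples and compares mainly different clusters. The genotypes did not overlap in 9 of these 10 populations. The exception was the *Rprm*/*Wnt10a* cluster, where the controls (36.4 and 73.8 CPM) spanned 1 of the ablated samples (50.3 and 24.6 CPM). Over all pairs of a fitted gene and 1 of the 17 populations, both ablated samples lay below both controls in 18.4% and above both in 24.7%. These shares stand beside every count of separated populations given for the 7 genes. They were not worked out for the mesenchyme alone. In mast cells, where *Socs2* had its highest level of all populations in either genotype, it stood at 87.5 and 222 CPM in the controls and at 337 and 350 CPM in the ablated samples, a log2 fold change of 1.12 ± 0.40. Both ablated samples were thus above both controls, the reverse of the mesenchyme. The leading genes of this population included *S100a8*, *S100a9*, *Cstdc4* and *Stfa1*, which were not on the mast cell marker list, beside *Cma1* and *Cpa3*. It may therefore hold other cells too, and their part in the *Socs2* difference was not tested. In endothelium (14.8 and 22.1 against 20.2 and 12.7 CPM) and in macrophages and neural cells the genotypes overlapped, at 1 to 9 UMIs per sample, and so they did in pericytes. Epithelium (14.1 and 27.9 against 7.0 and 0 CPM) and red blood cells (25.7 and 40.8 against 14.5 and 0 CPM) were lower in the ablated samples without overlap.

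*Stc1*, the secreted inhibitor of PAPP-A, had an uneven response, with fitted log2 fold changes from -0.16 to 3.49 in the mesenchyme. In the *Thbd*/*Ptgis* cluster, where it was among the 25 leading genes, it stood at 42.7 and 27.0 CPM in the controls and at 268 and 277 CPM in the ablated samples. In the periurethra, the mesenchyme around the urethra, it stood at 9.8 and 8.9 CPM in the controls and at 135 and 87.2 CPM in the ablated samples, its largest fitted difference (log2 fold change 3.49 ± 0.26). In the corpus cavernosum it stood at 2.6 and 5.2 CPM against 26.1 and 23.8 CPM. These 3 populations separated fully by genotype, as did 5 of the other 7 mesenchymal ones. Among those 5 was the *Rprm*/*Wnt10a* cluster, below the low-count filter at 0 and 1 against 3 and 5 UMIs. The proliferative cells overlapped (10.4 and 16 against 25.1 and 14.1 CPM). In the *Irx1*/*Col7a1* cluster it did not separate (6.0 and 6.7 against 5.6 and 6.8 CPM, log2 fold change -0.16 ± 0.40), although the cluster had 335 to 852 cells per sample. The *Sostdc1*/*Coch* mesenchyme had the highest control level (36.5 and 55.4 CPM) and a small difference (72.0 and 65.9 CPM in the ablated samples, log2 fold change 0.53 ± 0.20). The order of populations therefore changed: that mesenchyme led the controls, and the *Thbd*/*Ptgis* and *Kera*/*Nefl* clusters and the periurethra led the ablated samples, with means of 273, 122 and 111 CPM. In endothelium, which carried *Stc1* in both genotypes, the samples overlapped (31.8 and 39.2 against 56.0 and 17.8 CPM). The pericytes, also vascular, were higher in the ablated samples without overlap (42.0 and 36.2 against 70.3 and 52.8 CPM, log2 fold change 0.70 ± 0.39). Macrophages, mast cells and neural cells had 0 *Stc1* UMIs in both controls and at most 2 per ablated sample, too few for a ratio.

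*Txnip*, the brake on glucose uptake, was higher in each of the 10 mesenchymal populations without overlap, and in neither vascular, immune nor epithelial cells. It passed the low-count filter in all 17 populations, the only one of the 7 genes to do so. The *Thbd*/*Ptgis* cluster stood at 142 and 95 CPM in the controls and at 444 and 382 CPM in the ablated samples (log2 fold change 1.74 ± 0.19). In proliferative cells it stood at 61.5 and 68.6 CPM against 121 and 136 CPM. The smallest mesenchymal difference was that of the *Irx1*/*Col7a1* cluster (103 and 104 against 114 and 154 CPM, log2 fold change 0.29 ± 0.21). Control levels were highest in macrophages (283 and 167 CPM), endothelium (208 and 228 CPM) and pericytes (231 and 129 CPM). In macrophages the ablated samples lay within the control range (218 and 236 CPM), and so they did in epithelium (110 and 125 CPM, against 101 and 178 CPM). In endothelium the ablated samples spanned the controls (258 and 190 CPM). In pericytes both ablated samples were lower than both controls, at 87.8 and 98.5 CPM (log2 fold change -0.85 ± 0.31). Neural cells were higher without overlap (89.2 and 78.5 against 130 and 107 CPM), as were the red blood cells. Summed over the 10 mesenchymal populations, *Txnip* went from 89.9 ± 16.7 to 194 ± 9.49 CPM.

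**Figure D2:**
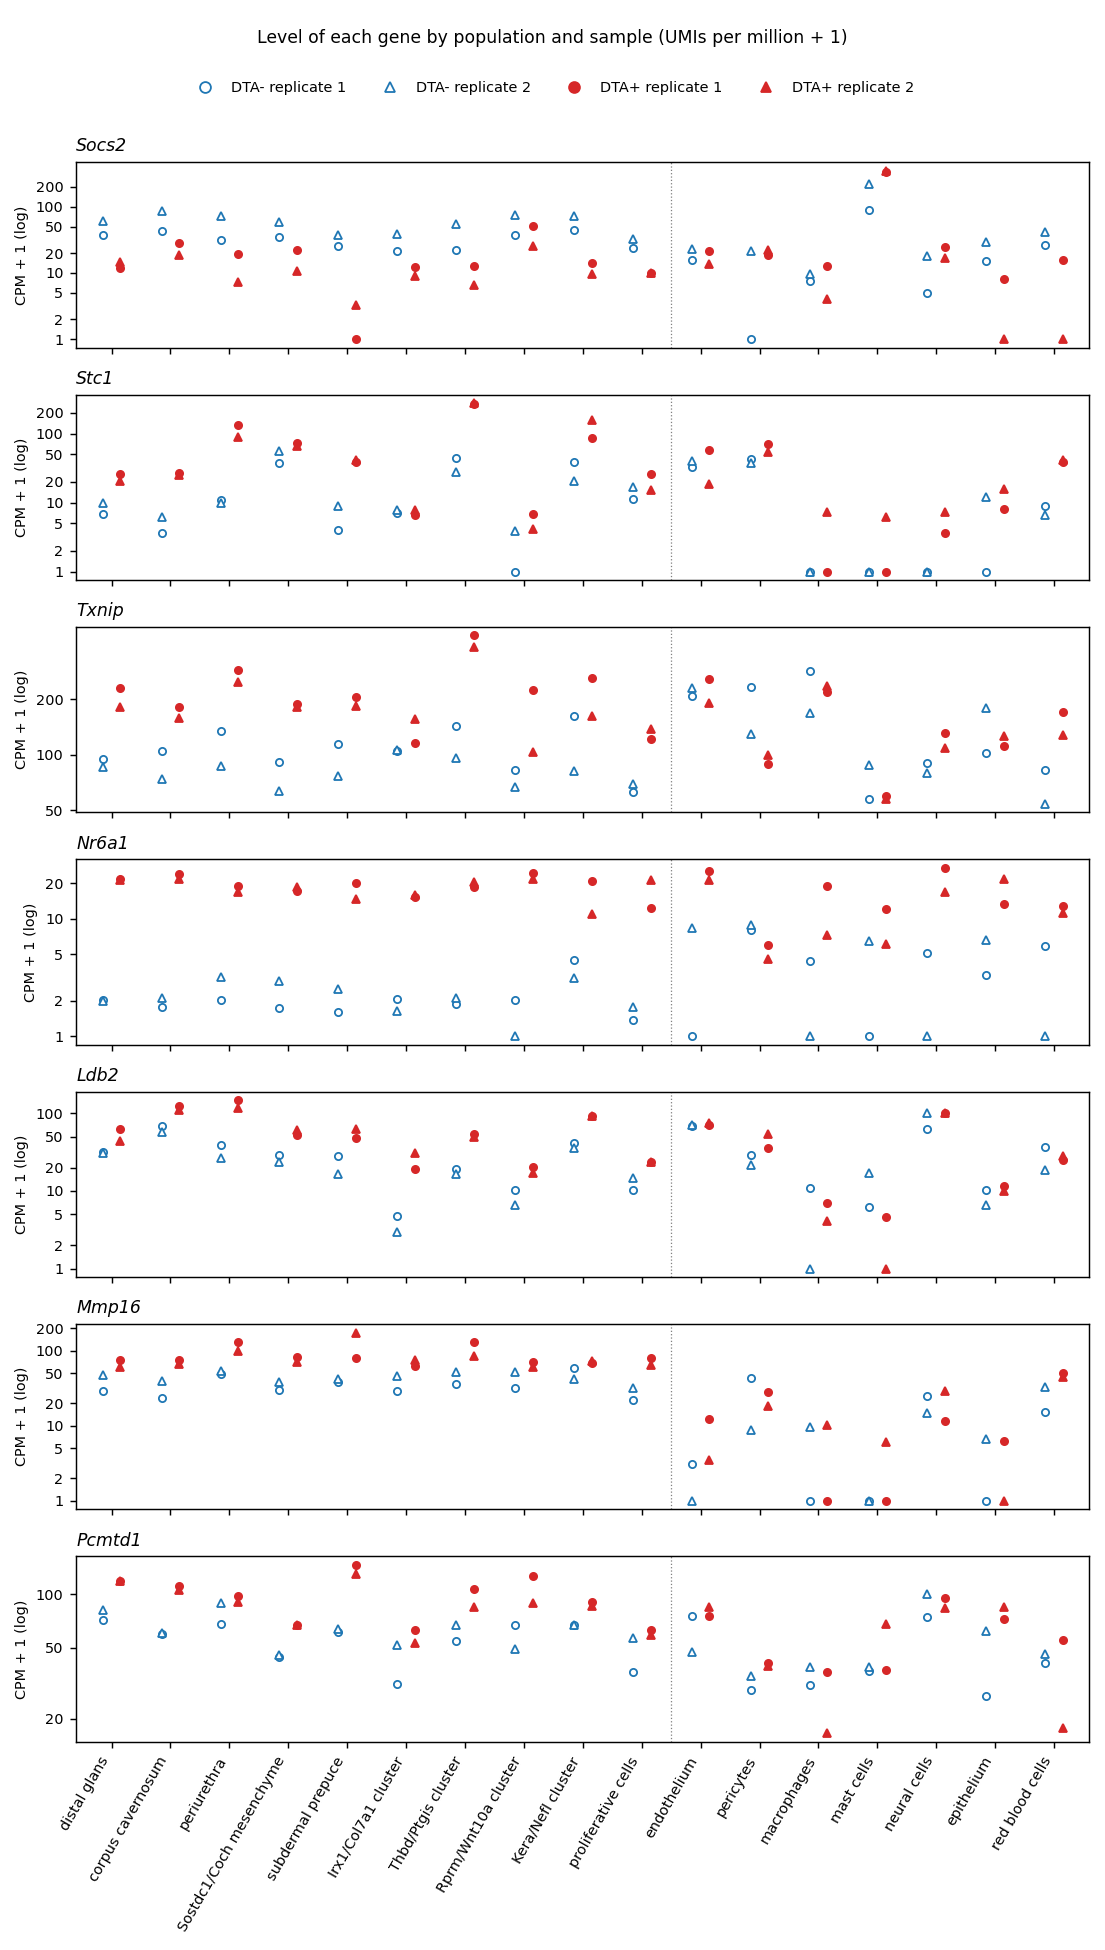
Level of each gene (CPM plus 1, log scale) in the 17 populations, with open symbols for the 2 control samples and filled symbols for the 2 ablated samples, and mesenchymal populations left of the dotted line. *Socs2* lies lower in the ablated mesenchyme and higher in ablated mast cells, *Nr6a1* is near 1 in the control mesenchyme and between 9.96 and 23.2 CPM in the ablated one, and *Txnip* separates by genotype left of the line more than right of it.

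*Nr6a1*, the germ cell nuclear factor, differed from the other 6 in being close to absent in the controls and present at a similar level in almost every ablated population. Its control means ran from 0.520 CPM in the *Rprm*/*Wnt10a* cluster to 2.8 CPM in the *Kera*/*Nefl* cluster among the mesenchymal populations, and its ablated means from 14.6 to 22.1 CPM. The distal glans had 7 and 4 UMIs in the controls, against 95 and 181 UMIs in the ablated samples. The corpus cavernosum had 2 and 3 UMIs against 63 and 57. The 10 mesenchymal populations all separated by genotype, and 9 passed the low-count filter. Outside the mesenchyme none passed it. Endothelium had 0 and 3 UMIs in the controls, against 11 and 8 in the ablated samples, and epithelium 1 and 2 against 7 and 7. Neural cells had 1 and 0 UMIs against 10 and 5, and macrophages 1 and 0 against 6 and 2. Pericytes (1 and 3 UMIs against 2 and 1) and mast cells (0 and 1 against 3 and 1) did not follow. When the 6 populations outside the mesenchyme other than red blood cells were summed within each sample, *Nr6a1* stood at 2.25 and 4.56 CPM in the controls and at 16.2 and 13 CPM in the ablated samples. The exact 95% Poisson intervals, which cover counting error only, ran to 5.75 and 8.66 CPM in the controls and started at 11.5 and 8.33 CPM in the ablated samples. The lowest ablated bound thus lay just inside the highest control bound. Since *Nr6a1* was chosen on this contrast, the sum and its intervals are a description and no test. In the same sum *Socs2* (18.5 and 38.5 against 51.9 and 46.0 CPM) and *Txnip* (164 and 154 against 146 and 144 CPM) went the reverse way of the mesenchyme. *Stc1*, *Ldb2*, *Mmp16* and *Pcmtd1* were higher in both ablated samples.

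The transcripts whose levels over the 68 population and sample sums were most like that of *Nr6a1* were *tdTomato* (Pearson r = 0.86), the reporter, and *Gt(ROSA)26Sor* (r = 0.75), the transcript of the Rosa locus that carries the toxin and reporter alleles, ahead of *Txnip* (r = 0.60). These are descriptions over sums that share libraries, among 6339 genes at a mean of 20 CPM or more. *tdTomato* had 0 UMIs in both controls and 2485 and 2343 UMIs in the ablated samples, at least 1620-fold higher in CPM against a floor of 3 UMIs over the controls together. Whether the controls carried the reporter allele is not clear from the study, which does not list it in their genotype. The fold may therefore compare presence of that allele with its absence. It was present in all 17 populations of the ablated samples, at 33.9 to 129 CPM. The study's methods describe this transcript as leaky, with low background in most cells, and set a cut-off in counts for marked cells. Its presence in a population is therefore not read as Cre activity there. *Gt(ROSA)26Sor* stood at 13.8 and 17.8 CPM in the controls and at 69.2 and 85.6 CPM in the ablated samples over all kept cells (log2 fold change 2.22 ± 0.17), and separated by genotype in 16 of 17 populations. In the 6 summed populations outside the mesenchyme it stood at 13.5 and 23.8 CPM against 49.8 and 50.4 CPM. These correlations hold the step between genotypes. Among ablated means alone the orders differed: *tdTomato* was at 119 CPM in the *Irx1*/*Col7a1* cluster, where *Nr6a1* was at 14.6 CPM, its lowest mesenchymal mean, and at 56.4 CPM in the corpus cavernosum, where *Nr6a1* was at 21.8 CPM. In mast cells *tdTomato* was at 98 CPM and *Nr6a1* at 8.06 CPM. The part of the introduced alleles in the *Nr6a1* counts was not tested. *Nr5a1*, the gene whose regulatory sequence drives the Cre, lies next to *Nr6a1* on the same strand, with its start 8.8 kb from the 3′ end of *Nr6a1*. *Nr5a1* itself had 0 UMIs in the controls, against 0 and 2 UMIs in the ablated samples. The transgene cannot be told apart from the ablation in this design, since the ablated samples alone carried it. The same holds for the reporter allele at the Rosa locus if the controls lacked it.

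**Figure D3:**
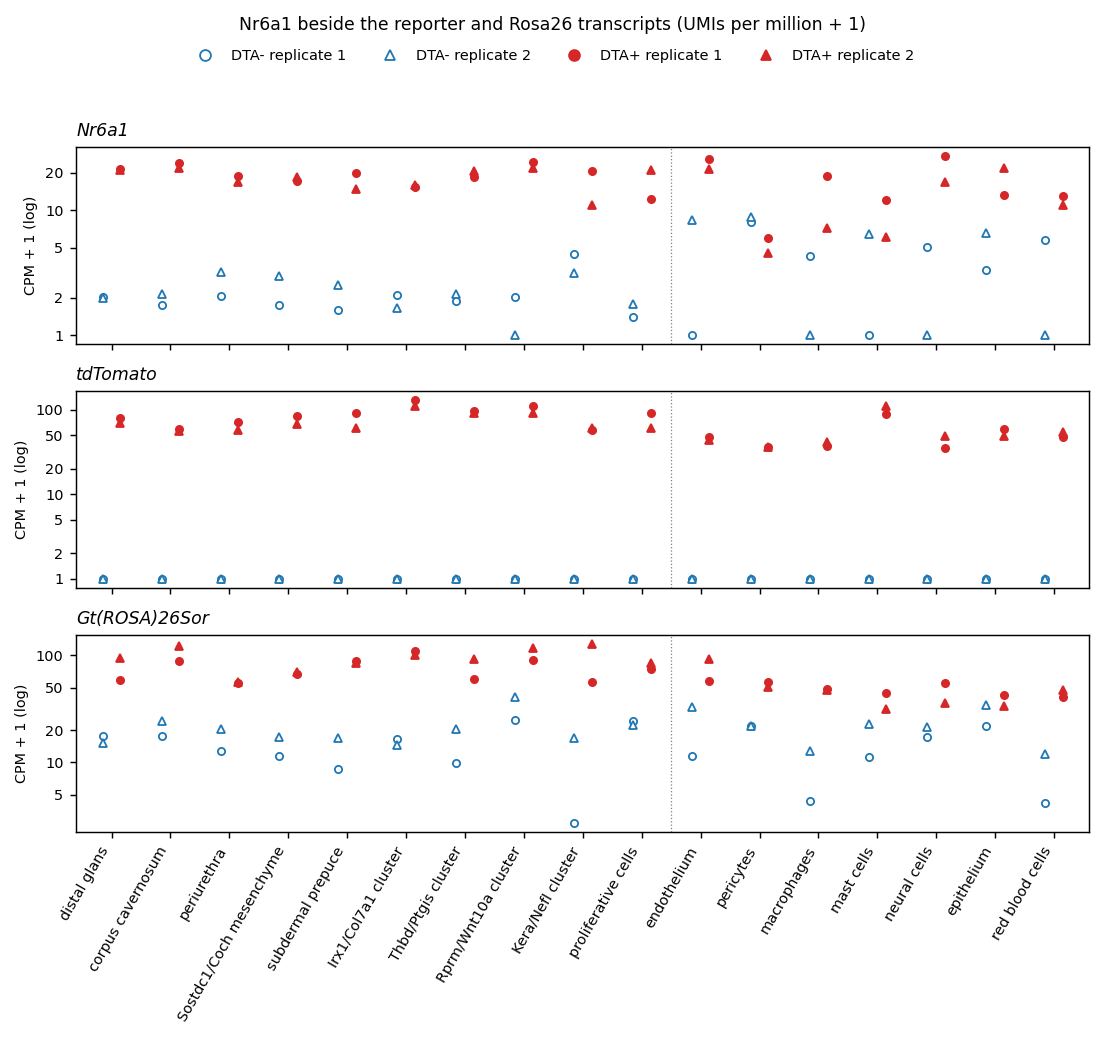
Levels of *Nr6a1*, the reporter *tdTomato* and the Rosa locus transcript *Gt(ROSA)26Sor* (CPM plus 1, log scale) in the 17 populations, symbols as for the plot of the 7 genes. *tdTomato* had 0 UMIs in every control population and lies higher in all 17 ablated ones. The other 2 lie higher in ablated samples on both sides of the dotted line, except *Nr6a1* in pericytes (lower) and mast cells (overlap) and *Gt(ROSA)26Sor* in epithelium (overlap).

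*Ldb2*, the LIM-domain adaptor, was higher in all 10 mesenchymal populations without overlap and close to equal in endothelium. The periurethra stood at 38.2 and 25.7 CPM in the controls and at 146 and 116 CPM in the ablated samples. The largest ratio was that of the *Irx1*/*Col7a1* cluster, where *Ldb2* was lowest in the controls (3.8 and 1.9 CPM, against 18.4 and 29.6 CPM in the ablated samples, log2 fold change 3.02 ± 0.42). In the corpus cavernosum, which had the highest mesenchymal control level, it stood at 68.0 and 55.5 CPM against 122 and 108 CPM. Endothelium stood at 67.9 and 68.7 CPM in the controls and at 69.5 and 73.7 CPM in the ablated samples (log2 fold change -0.05 ± 0.27). The endothelial levels do not overlap, but the step between genotypes was smaller than the SE of the fit. Neural cells stood at 60.8 and 99.0 CPM against 99.1 and 101 CPM, and macrophages, mast cells and epithelium had 0 to 6 UMIs per sample. Pericytes, the other vascular population, were higher without overlap (28 and 20.7 against 35.1 and 52.8 CPM, log2 fold change 0.88 ± 0.51).

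*Mmp16*, the membrane-anchored metalloproteinase, had its highest mean levels in the mesenchyme in both genotypes. Its control means in the 10 mesenchymal populations ran from 26 to 49.9 CPM and its ablated means from 64.6 to 126 CPM, and the samples separated by genotype in each. In proliferative cells it stood at 20.9 and 31.0 CPM in the controls and at 79.4 and 62.6 CPM in the ablated samples. The subdermal prepuce had the largest difference (37.4 and 41.7 against 78.4 and 174 CPM, log2 fold change 1.70 ± 0.32), with the ablated samples far apart and mainly from another cluster than the controls. The smallest was that of the *Kera*/*Nefl* cluster (57.1 and 40.7 against 67.0 and 71.0 CPM, log2 fold change 0.50 ± 0.26). In endothelium, epithelium, macrophages and mast cells it had 0 to 5 UMIs in every sample, so that its direction there could not be read at this depth. The genotypes overlapped in pericytes (42.0 and 7.8 against 27.6 and 17.6 CPM) and neural cells (24.3 and 13.7 against 10.4 and 28.4 CPM). Red blood cells were higher without overlap (14.4 and 32.0 against 50.2 and 43.6 CPM).

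*Pcmtd1*, the methyltransferase-like gene, had the smallest differences of the 7. In the corpus cavernosum it stood at 58.9 and 59.6 CPM in the controls and at 110 and 105 CPM in the ablated samples. In the distal glans it stood at 70.7 and 80.9 CPM against 118 and 118 CPM, and in the subdermal prepuce at 60.03 and 62.5 CPM against 145 and 128 CPM, its largest fitted difference (log2 fold change 1.10 ± 0.23). The subdermal prepuce values compare mainly different clusters. Although the samples separated by genotype in all 10 mesenchymal populations, the step was small in some of them, as in the periurethra (66.9 and 88.1 against 97.0 and 89.6 CPM, log2 fold change 0.22 ± 0.17). In endothelium (74.2 and 46.6 against 74.0 and 83.8 CPM), macrophages, mast cells and neural cells the samples overlapped, and in epithelium they did not (25.8 and 61.4 against 71.8 and 83.4 CPM). Pericytes were also higher without overlap (28.0 and 33.6 against 40.1 and 38.7 CPM), by less than the SE of the fit (log2 fold change 0.28 ± 0.45).

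**Figure D4:**
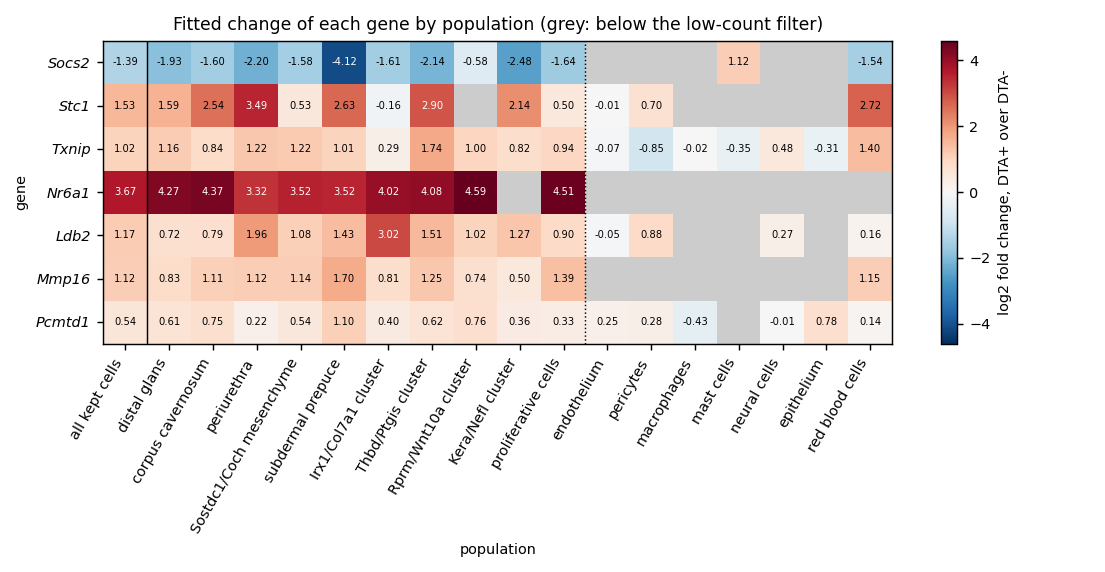
Fitted log2 fold change of ablated over control samples for each gene (rows) over all kept cells and in each population (columns), red for higher and blue for lower in ablated samples, with grey where the gene was below the low-count filter. The fitted mesenchymal values are negative for *Socs2* and positive for the other 6 genes except *Stc1* in the *Irx1*/*Col7a1* cluster (-0.16), with *Stc1* in the *Rprm*/*Wnt10a* and *Nr6a1* in the *Kera*/*Nefl* cluster grey, while the columns right of the dotted line are mixed in sign, from -1.54 (*Socs2*) to 2.72 (*Stc1*), both in red blood cells.

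Most levels within a genotype could not be ranked finely. When the 17 populations were ordered by their mean level, 14 to 16 of the 16 neighbouring pairs overlapped between samples in the controls, and 8 to 15 in the ablated samples. *Ldb2* was the gene with the fewest overlaps (8 of 16 in the ablated samples) and *Txnip* in the controls the one with most. For *Stc1* the most similar genes over the 68 sums were *Foxd2os* (r = 0.74), *Igfbp3* (0.71) and *Cxxc4* (0.69), and for *Mmp16* they included *Pja1* (0.88) and *Hoxc11* (0.87). *Ldb2* was nearest to *Srgap1* (0.77), *Atp2b4* (0.74) and *Grb10* (0.74), and *Pcmtd1* to *Hbp1* (0.76), *Prrc2c* (0.75) and *Bptf* (0.74). *Socs2* was nearest to *Furin* (0.57), *Gadd45a* (0.55) and the mast cell tryptase *Tpsab1* (0.54), and *Txnip* to *Mia2*, *Oxa1l* and *Sppl2a* (0.57, 0.57 and 0.56). All these values describe sums that share libraries and genotypes.

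RNA set free from broken cells can place mesenchymal transcripts in other cells, and the fibrillar collagens *Col1a1*, *Col1a2* and *Col3a1* served as its measure. Their summed level in macrophages was 4.4% of the mesenchymal level in the controls and 6.7% in the ablated samples, in mast cells 6.4% and 6.3%, in endothelium 8.1% and 6.1% and in epithelium 10.1% and 5.5%. These are means over samples. Single controls lay at 4.1% and 12.0% in endothelium and at 6.4% and 13.7% in epithelium. The ablated *Nr6a1* level was 125% of the mesenchymal one in endothelium, 92.2% in epithelium and 67.1% in macrophages, and that of *Txnip* 115%, 60.6% and 117%. Both were above the collagen share in these 3 cell types, where *Nr6a1* rested on 2 to 11 UMIs per ablated sample. In ablated pericytes collagen stood at 47.9%, *Nr6a1* at 23.8% and *Txnip* at 48.0%. Whether pericytes make these collagens themselves was not tested, so their collagen share is not read as free RNA. The part of free RNA in these levels was not tested. *Mmp16* lay at 8.8% in endothelium, 3.4% in epithelium and 6.0% in macrophages, near the collagen share, and is not read as expression there. The red blood cells kept after filtering are a different case. Over the samples, hemoglobin made up 29.96% to 41.2% of their UMIs and their collagen level was 46.7% to 63.2% of the mesenchymal one. Their member levels, among them the *Stc1* difference (8.0 and 5.5 against 38.3 and 40.2 CPM), therefore come with mesenchymal RNA in the same barcodes, whose part was not tested. In the cells removed for their hemoglobin content, mean collagen levels were 1.8% (controls) and 1.5% (ablated samples) of the mesenchymal one. The 7 genes stood at 0 to 4.5 CPM there. Hemoglobin made up at least 92.48% of the UMIs of these cells in each sample, which lowers the CPM of every other gene. These low levels are therefore not read as a lack of mesenchymal RNA.

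Cells of more than 7500 UMIs, left out of all values above, came from the same 4 libraries and add cells rather than replicates. In their sums *Nr6a1* stood at 1.9 and 2.7 CPM in the controls and at 18.6 and 21.1 CPM in the ablated samples, and *Socs2* at 29.3 and 51.8 against 26.9 and 18.3 CPM. *Stc1* stood at 13.4 and 27.2 against 38.9 and 49.4 CPM, and *Txnip* at 99.6 and 99.3 against 151 and 163 CPM. *Ldb2* (37.0 and 31.7 against 41.5 and 64.9 CPM), *Mmp16* (26.4 and 30.8 against 48.7 and 62.7 CPM) and *Pcmtd1* (51.4 and 59.6 against 75.0 and 88.3 CPM) were higher in the ablated samples. All 7 differences kept their direction among these deep cells, while the fitted log2 fold changes of *Txnip* (0.59 ± 0.12) and *Ldb2* (0.55 ± 0.22) were about as large as that of *Pcmtd1* (0.49 ± 0.14).

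The genes that work with the 7 were examined next. The rule for the 7 did not use their values, but the list was drawn up with earlier results of these libraries known, so it is not independent of them. Of 70 listed partners, 61 were fitted in at least 1 population and 29 were called in at least 1, 17 of them higher only, 11 lower only and 1 in both directions, beside 17.1% of all 13888 fitted genes called anywhere. That share also covers genes fitted in few populations, which had fewer chances of a call, while many partners were fitted in most of them. Over all kept cells edgeR called none of the 63 tested there. Of these, 20 had an unadjusted p under 0.05, beside 2409 of all 15977 genes. The median log2 fold change over the list was 0.03, and DESeq2 called 13. No test of the list was made, and the values below are those of single genes within populations.

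Around *Socs2*, 6 of 14 partners were called. *Ghr*, the growth hormone receptor, rose in 4 populations, most in the periurethra (121 and 96.0 CPM in the controls against 313 and 312 CPM in the ablated samples, log2 fold change 1.47 ± 0.16, adjusted p = 0.00067 by edgeR). *Igf1*, the growth factor induced by that receptor, fell in 3, most in the distal glans (101 and 262 against 65.4 and 57.1 CPM, adjusted p = 0.00691 by edgeR). *Elob*, the elongin B adaptor of SOCS and PCMTD1 ubiquitin ligases, fell in 3, most in the corpus cavernosum (735 ± 130 to 532 ± 41.9 CPM, adjusted p = 0.0246 by edgeR).

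All 5 partners of *Stc1* were called. *Igfbp5*, an insulin-like growth factor-binding protein cut by PAPP-A2, fell in 6 populations, among them the corpus cavernosum (301 and 290 against 31.8 and 42.5 CPM, adjusted p = 6.59e-08 by edgeR) and, with mainly different clusters in each genotype, the subdermal prepuce (1823 ± 359 to 206 ± 11.3 CPM). *Pappa*, the protease that stanniocalcins inhibit, rose in 4, most in the *Thbd*/*Ptgis* cluster (4.20 ± 2.8 to 27.1 ± 4.4 CPM, adjusted p = 0.000428 by edgeR). *Stc2*, the paralog of *Stc1*, fell in 3, as in the periurethra, where *Stc1* was higher (29.8 ± 8.51 to 5.93 ± 4.95 CPM, adjusted p = 0.0103 by edgeR).

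Of 12 fitted partners of *Txnip*, 4 were called. *Txn1*, the thioredoxin that TXNIP binds, fell in 4 populations, most in the *Thbd*/*Ptgis* cluster (529 ± 1.70 to 254 ± 34.8 CPM, log2 fold change -1.10 ± 0.15, adjusted p = 0.000202 by edgeR), where *Txnip* had its highest ablated level. *Arrdc4*, a related arrestin with the same upstream sensors, rose in the *Sostdc1*/*Coch* mesenchyme and in the periurethra (14.7 ± 0.0707 to 51.9 ± 21.5 CPM there, adjusted p = 0.00867 by edgeR). *Ddit4*, a stress-induced inhibitor of mTOR, rose in 1 population, the subdermal prepuce (18.2 ± 3.71 to 40.1 ± 3.04 CPM, adjusted p = 0.0477 by edgeR).

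None of the 6 fitted partners of *Nr6a1*, a list of its targets and relatives, was called by edgeR or DESeq2 in any population, and 2 had an unadjusted p under 0.05 in at least 1 in edgeR. Of the other 3 listed, none passed the filter in any population.

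Of 13 fitted partners of *Ldb2*, 7 were called. *Lmo4*, a LIM-only protein that competes for the LIM-domain-binding adaptors, fell in 4 populations, most in the periurethra (810 ± 93.9 to 297 ± 15.7 CPM, adjusted p = 0.000447 by edgeR), where *Ldb2* had its highest ablated level. *Ssbp2*, which stabilizes these adaptors, rose in the *Thbd*/*Ptgis* cluster and in the subdermal prepuce (160 ± 23.5 to 326 ± 64.6 CPM, adjusted p = 0.0252 by edgeR), and *Lmo3* rose in the subdermal prepuce (1.86 ± 1.57 to 17.7 ± 4.88 CPM, adjusted p = 0.00601 by edgeR).

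Of 9 fitted partners of *Mmp16*, 6 were called, in mixed directions. *Timp1*, a tissue inhibitor of metalloproteinases, fell in the *Thbd*/*Ptgis* cluster and the corpus cavernosum (26.9 ± 3.31 to 11.3 ± 2.48 CPM, adjusted p = 0.00549 by edgeR). *Mmp2*, the gelatinase that MMP16 activates, rose in the same 2 populations (191 ± 22.8 to 300 ± 28.8 CPM in the *Thbd*/*Ptgis* cluster, adjusted p = 0.0211 by edgeR). *Timp3* rose in the *Thbd*/*Ptgis* cluster (184 ± 37.5 to 323 ± 41.6 CPM, adjusted p = 0.00831 by edgeR) and fell in the subdermal prepuce (110 ± 47.7 to 26.1 ± 6.71 CPM, adjusted p = 0.00968 by edgeR). For *Pcmtd1*, the paralog *Pcmtd2* rose in 3 populations, most in the *Thbd*/*Ptgis* cluster (37.8 ± 3.79 to 92.8 ± 17.1 CPM, adjusted p = 0.00085 by edgeR).

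The chromosomal neighbours of the 7 genes were examined to see whether a difference reached past the gene itself. Of the genes lying within 500 kb on either side, 59 were tested over all kept cells and 0 were called by edgeR, beside the 0.488% of all genes, while DESeq2 called 2. Within populations edgeR called 4 of them, beside 17.1% of all 13888 fitted genes called in at least 1 population. Some of the 59, such as *Gm42716* and *Lhx2*, were fitted in no population and could not be called there, while that share covers fitted genes only. These 4 were named after their values were seen. *Scai* near *Nr6a1* was higher in 2 populations, *Prom1* near *Ldb2* higher in 1, and *Ube2n* near *Socs2* and *Bola1* near *Txnip* lower in 1 each. Over all kept cells, 3 genes around *Nr6a1*, 3 around *Ldb2*, 2 around *Txnip* and 1 around *Socs2* had an unadjusted p under 0.05. So did 2409 of all 15977 genes tested, a similar share. On either side of *Nr6a1*, the nearest tested genes were *Psmb7* (123 ± 2.8 to 113 ± 10.9 CPM, log2 fold change -0.20 ± 0.12) and *Olfml2a* (4.08 ± 0.300 to 6.76 ± 1.18 CPM, 0.65 ± 0.20), with adjusted p of 0.477 and 0.228 by edgeR. None of the 11 tested genes around *Nr6a1* came near its log2 fold change of 3.67, their median being -0.01. The antisense transcript *Nr6a1os*, inside the gene, stood at 1.14 ± 0.147 and 1.51 ± 0.374 CPM. The nearest tested genes of *Socs2* (*Gm48882* and *Mrpl42*), *Txnip* (*Fcgr1* and *Polr3gl*), *Stc1* (*Slc25a37*), *Ldb2* (*Gm42984*) and *Pcmtd1* (*Gm26901*) lay between -0.31 and 0.19 in log2 fold change, and *Mmp16* had no tested gene in its window. At *Ldb2* the overlapping transcripts *Gm3364* and *Gm43507*, named after their values were seen, lay at 1.2 ± 0.22 and 1.65 ± 0.52 (adjusted p = 0.0923 and 0.228 by edgeR), in the same direction as *Ldb2*. *Gm16401*, which does not overlap *Ldb2* and was also named after its values were seen, lay at 1.41 ± 0.48 (0.19 ± 0.0533 to 0.537 ± 0.0492 CPM, adjusted p = 0.259 by edgeR), and the median of the 8 tested genes there was 0.40. Reads of overlapping transcripts may not be separable in these counts.

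**Figure D5:**
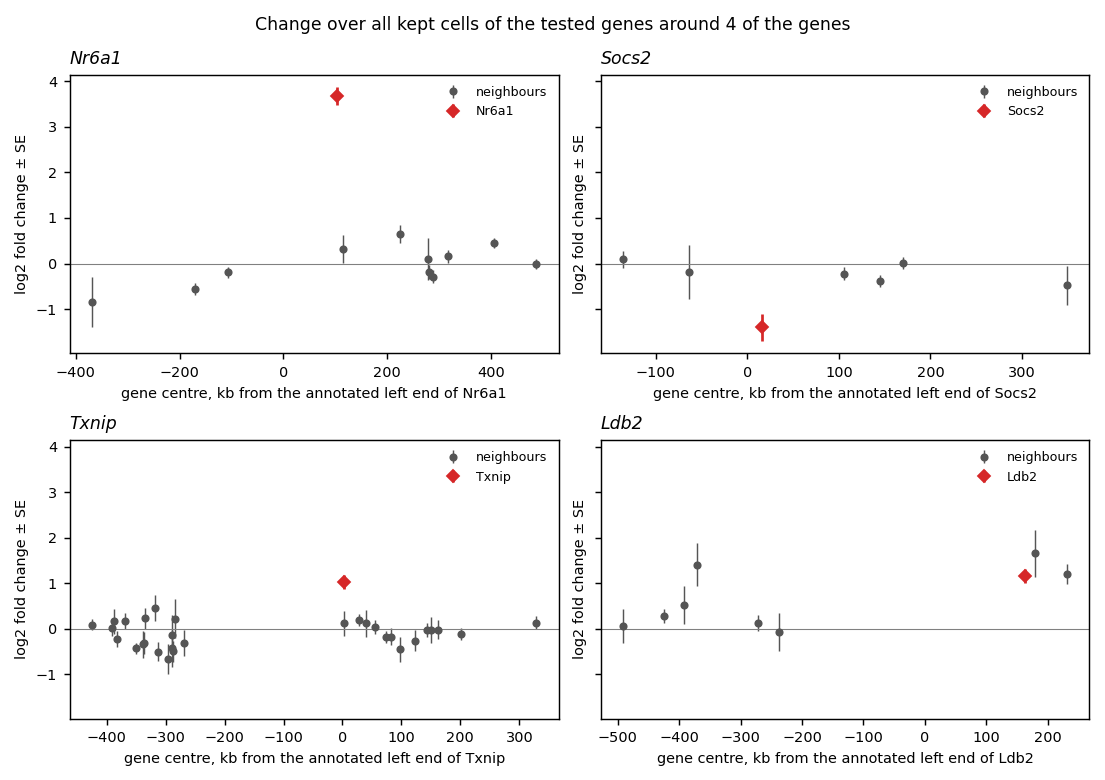
Log2 fold change over all kept cells with its standard error (vertical axis) of the tested genes within 500 kb of *Nr6a1*, *Socs2*, *Txnip* and *Ldb2*, placed by the distance of each gene's centre in kb from the annotated left end of that gene (horizontal axis), with the gene itself as a red diamond. The red diamond of *Nr6a1*, at 3.67, lies apart from its 11 neighbours, while at *Ldb2* 2 overlapping transcripts lie near it.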

How the data were processed

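Penile cells of 2 control and 2 ablated samples were profiled by droplet single-cell RNA sequencing. The deposited matrices hold counts, that is UMIs per gene and cell, which the authors made with Cell Ranger 4.0.0 per the labels (the study's methods name an earlier release) on mm10 with *tdTomato* added, without normalization. The genes and lists reported here were chosen with earlier results of these data known, as were some of the marker lists.

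Following the study's limits, a cell was retained if it had 1000 to 7500 UMIs, no more than 25% of them mitochondrial or from Hba genes and no more than 50% from Hbb genes (52.2% to 77.7% of each library). They were clustered in Seurat 5.3.0 (2000 variable genes without the 7, 30 components, resolution 0.8) and clusters were named by at least 3 enriched markers. Scrublet called 0 or 1 doublets per library and was not relied on; the cells with its highest scores were left out in an alternative. UMIs were summed per sample and population (at least 20 cells in each sample) and tested for genotype by the quasi-likelihood method of edgeR 4.0.16, with TMM scaling, the filterByExpr low-count filter and Benjamini-Hochberg adjustment over all genes tested. Levels are CPM of each sum, without TMM. DESeq2 1.42.0 and other settings served as alternatives. Partner genes are named where they passed the test (up to 3 per gene, those called in most populations), and neighbours where nearest; 1 gene among those most similar to *Mmp16* is not reported here. The study's methods call the replicates biological, while the labels do not say whether samples came from separate litters. The p-values rest only on the spread between these samples, shared across genes in the fit, and part of it may be technical. The fit was checked on data with known changes, and recovered far fewer of them in epithelium, macrophages and endothelium than over all kept cells.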

Additional observations from a re-analysis of the deposited data

Results flagged for a closer look

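*Socs2* in mast cells stood out because both ablated samples lay above both controls there (log2 fold change 1.12), while both lay below in 9 mesenchymal populations. *Txnip* in pericytes stood out in the same way, with both ablated samples below both controls (log2 fold change -0.85) against the reverse in all 10 mesenchymal populations. Neither difference between populations was tested. The mast cells numbered 39 to 65 per sample and the pericytes 27 to 76. The mast cell population was also led by genes outside its marker list, such as *S100a8* and *S100a9*, and may hold other cells. The reporter transcript *tdTomato*, which is not one of the 7 genes and was set beside *Nr6a1* above, had 2485 UMIs in the first and 2343 UMIs in the second ablated sample over all kept cells and 0 in the controls.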

How the results depend on the processing

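Over all kept cells, each of the 7 genes kept its direction in all 91 fits of the alternatives, and so did the medians over mesenchymal populations in all 105; the 5 and 1 values that moved by more than the spread between replicates were all of *Nr6a1*. The log2 fold change of *Nr6a1* over all kept cells moved from 3.67 to 3.35 without an upper UMI limit, 3.43 after thinning each cell to 1000 UMIs and 3.37 with every deposited cell, and ranged from 3.5 to 3.87 with 1 sample left out; its mesenchymal median moved from 4.08 to 3.46 after thinning. Of 51 pairs of a gene and a population that were called, 29 were called after thinning. Partners called went from 29 to 19 with DESeq2. Over the alternatives, the number of populations in which a named partner was called moved by over 1.5 times in 62 instances and did not in 162. Neighbours called went from 0 to 2 with DESeq2 (*Gm3364* and *Scai*), 2 with the likelihood ratio test (*Gm3364* and *Nek6*) and 1 without the low-count filter (*Gm3364*).

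The 78 genes called over all kept cells became 555 with DESeq2, 658 with the likelihood ratio test, 659 without the low-count filter, 21 without an upper UMI limit and 234 after thinning, and 90 to 264 with 1 sample left out (176 without the first control, 264 without the first and 203 without the second ablated sample); the cause was not tested. The replicate numbers were not taken as pairs, since the deviations of same-numbered samples from their group means were not positively correlated over genes (correlation -0.23, weakly negative). The replicate block gave 335 calls, and the crossed pairing, added after the data were seen, 1668. The collagen level in macrophages went from 5.52% to 12.6% of the mesenchymal level without an upper UMI limit.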
